A study of Mus musculus with 10 samples.

Results

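The IL-3 receptor and related cytokine receptors were followed in 32Dcl3 cells, a clonal mouse myeloblast line that needs interleukin-3 (IL-3) to grow, after transcription had been blocked with actinomycin D. The genes were Il3ra, Csf2rb, Csf2rb2, Csf2ra, Csf3r, Il2rg, Il4ra, Il6st, Il10rb and Ifngr1. All probe sets to which the platform annotation gives one of these 10 symbols were taken, and 15 of the 22690 probe sets on the Affymetrix mouse arrays were found. They covered 9 of the 10 genes, since the annotation lists no probe set under Il2rg. One of the 15, 1450200_s_at, names both Csf2rb and Csf2rb2, and is described as the shared set and counted for neither gene alone.

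Cells were washed free of IL-3, given actinomycin D at 10 µg/ml and divided, and IL-3 was added to 1 ng/ml (the high dose) or 10 pg/ml (the low dose). Total RNA was hybridised from 5 groups of 2 arrays, namely 0 h and, for each dose, 2 h and 4 h, with 1 array of each group in each of 2 experiments. All the cells given IL-3 therefore carried the drug, and no group without it was followed. The labels place the 0 h sample after actinomycin D in its title and just before the drug in its description, so a change from 0 h may hold a short interval of drug exposure more or less than the stated time. The study describes the 2 experiments as independent, and nothing in the labels says whether they came from separate cultures. The p-values measure only the spread between these arrays, whose number limits the precision.

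The IL-3 receptor is assembled from a ligand-binding chain and a signalling chain. Il3ra encodes the alpha chain that binds IL-3, and Csf2rb the common beta chain shared by the receptors for IL-3, IL-5 and GM-CSF, while the mouse also has Csf2rb2, a beta chain that works with IL-3 alone. The beta chains carry JAK2, which phosphorylates STAT5 when the cytokine binds. In myeloid progenitors IL-3 sustains growth and survival, whereas G-CSF, through Csf3r, drives granulocyte maturation.

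Most myeloblast markers were measured in these cells. Of the 10 myeloblast and granule markers, 9 had a probe set and 6 were at an intensity of 50 or more on both 0 h arrays, with Elane, Kit and Cd34 under 50 on both. The 4 mast cell and basophil markers tested were Cpa3, Gata2, Mcpt8 and Fcer1a. At 0 h in experiments 1 and 2 they stood at 1005 and 1412, 2260 and 2118, 54.5 and 188, and 25.4 and 155. Markers of other classes were bright too, with Adgre1, of macrophages, at 2889 and 3281 and Itga2b, of megakaryocytes, at 1972 and 1823. Of the macrophage markers, 8 had a probe set and 4 were under 50 on both 0 h arrays. Of the erythroid and megakaryocyte markers, 6 had a probe set and 3 were under 50 on both. In such bulk RNA, fewer cells of a type and less RNA per cell cannot be told apart. None of the 6 lymphoid markers with a probe set was tested, and their summed intensity on the 0 h arrays was between 44.3 and 90.2. None of the tested markers of any class differed between IL-3 doses as the mean of both times. The median intensity of an array ranged from 48.8 to 70.6, and arrays of one group correlated between experiments at r = 0.975 to 0.985 across probe sets on the log2 scale. Levels below are intensities on the authors' linear scale, and changes are log2 differences of intensity plus 16. A probe set was tested when its mean over the 10 arrays was at least 50, which left 11856 probe sets and 9 of the 15 for the receptors.

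Among those 9, the signal of Il3ra was higher at 4 h than at 0 h under both doses, the probe sets of Csf2rb, Csf2rb2, Il4ra and Il10rb and the shared set were lower under both, Ifngr1 was lower at the high dose alone, and Csf3r did not pass the test. At 4 h at the high dose, 1 of the 9 rose against 9.67% of all probe sets tested, and 7 fell against 35.4%. At 4 h at the low dose, 1 rose against 15.3% and 6 fell against 38.3%. At 2 h at the high dose, 1 rose against 3.48% and 4 fell against 22.6%, and at 2 h at the low dose, 1 rose against 1.58% and 5 fell against 23%. The median change of the 9 at 4 h was -0.63 at the high and -0.62 at the low dose, and that of all probe sets tested was -0.10 and -0.12. The zero of these changes was set by the normalisation. With arrays scaled to their 75th percentile, the median of all probe sets tested at 4 h moved to 0.31 at the high and 0.30 at the low dose, so changes are given below relative to the median, with adjusted p from limma for the change itself. The comparisons with 0 h share the same 0 h arrays and are not independent of each other.

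**Figure D1:**
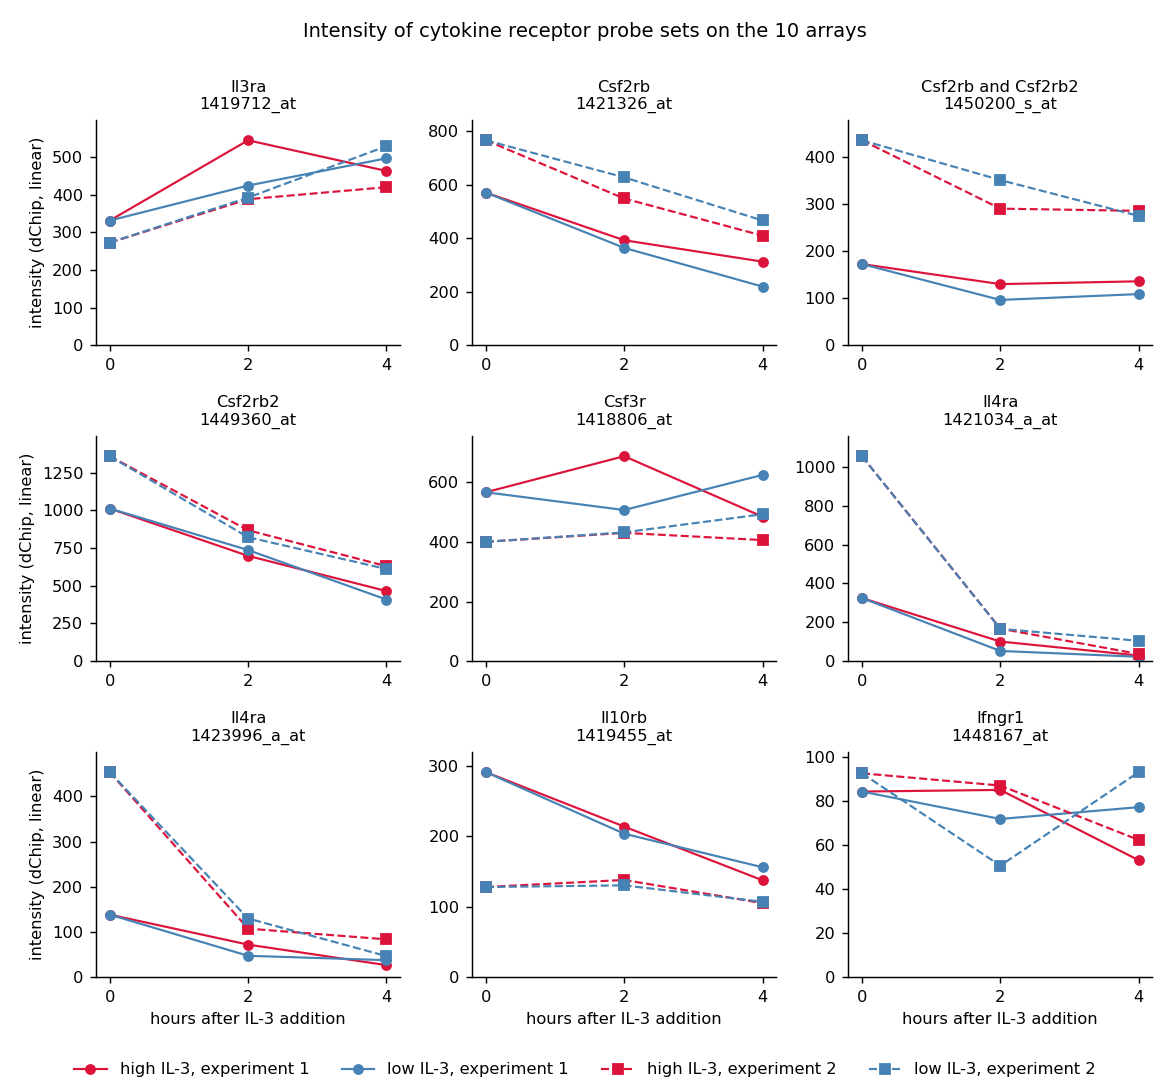
Intensity (linear, y axis) of the 9 receptor probe sets tested against hours after IL-3 addition (x axis). Each point is 1 array, with the high dose in red, the low dose in blue, experiment 1 as circles and experiment 2 as squares. Il3ra lies above its 0 h arrays at every later point, and the Il4ra probe sets drop within 2 h in both experiments.

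The ligand-binding chain of the IL-3 receptor rose relative to the normalised RNA while transcription was blocked. Il3ra (1419712_at) stood at 331 and 272 at 0 h in experiments 1 and 2. With the high dose it was 544 and 388 at 2 h, and 462 and 419 at 4 h. At the low dose it was 424 and 392 at 2 h, and 496 and 528 at 4 h. Every one of the 8 later arrays was above both 0 h arrays, and the highest levels were those of the high dose at 2 h in experiment 1 and of the low dose at 4 h in experiment 2. Relative to the median, the change was 0.67 at 2 h (adjusted p = 0.00671, limma) and 0.63 at 4 h (adjusted p = 0.00736) at the high dose. At the low dose it was 0.47 at 2 h (adjusted p = 0.0453) and 0.86 at 4 h (adjusted p = 0.000482), with a standard error of 0.15 for each. These changes stood at the 98.7th, 95.5th, 97.3rd and 97.4th percentiles of all probe sets tested, and were upward in 2 of 2 experiments each time. The change from 2 h to 4 h did not pass the test at either dose, with -0.01 at the high and 0.38 at the low dose relative to the median (adjusted p = 0.82 and 0.139, limma).

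The rise of Il3ra to 4 h at the low dose passed the test in every leave-one-out fit, while its other calls rested on single arrays. At 2 h at the high dose the adjusted p was 0.122 without the 2 h high-dose array of experiment 1. At 4 h at the high dose it was 0.0523 without the 0 h array of experiment 2 and 0.0645 without the high-dose 4 h array of that experiment. At 2 h at the low dose the call was lost in 6 leave-one-out fits, at adjusted p = 0.0636 to 0.304, namely those without either 0 h array, either low-dose 2 h array or either high-dose 4 h array. Without the experiment as a block, the 3 calls other than that at 4 h at the low dose were also lost (adjusted p = 0.157 to 0.474). Markers called higher at 4 h were 2 of the 4 mast cell and basophil markers tested, 1 of the 4 macrophage and 1 of the 3 erythroid and megakaryocyte markers at each dose. Of all probe sets tested, 9.67% rose at the high and 15.3% at the low dose. None of the 6 myeloblast markers was called higher at the high dose, and 1 was at the low dose. At each dose 1 mast cell and basophil, 1 macrophage, 4 myeloblast and 0 erythroid and megakaryocyte markers were called lower. Of all probe sets tested, 35.4% fell at the high and 38.3% at the low dose. The summed intensity of the 8 mast cell and basophil markers was 3444 to 3937 at 0 h. Over the 2 h and 4 h arrays it was 1664 to 2696 at the high dose and 1589 to 3048 at the low dose. Gata2, the 1 called lower, stood at 2260 and 2118 at 0 h and so made up much of this sum. Mcpt8 and Fcer1a were the 2 called higher. Of the 8, Ms4a2, Hdc and Cma1 were under 50 on both 0 h arrays. The part of the markers in the rise of Il3ra was not tested.

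Both beta chains declined, to means between 42.7% and 54.1% of the 0 h signal at 4 h. Csf2rb (1421326_at), which encodes the common beta chain, stood at 570 and 765 at 0 h. At the high dose it fell to 392 and 548 at 2 h, and to 312 and 409 at 4 h, and at the low dose to 364 and 627, and then to 219 and 466. The 4 h arrays lay below both 0 h arrays at each dose, while at 2 h at the low dose the array of experiment 2 lay between them. At 4 h, 54.1% ± 0.932 (SD, n = 2) of the 0 h signal was left at the high dose and 49.7% ± 15.9 at the low dose. The change relative to the median was -0.76 (adjusted p = 0.000346, limma) and -0.89 (adjusted p = 6.29e-05), each with a standard error of 0.16. Both 4 h calls were kept in every leave-one-out fit, and without the block they were lost at adjusted p = 0.229 and 0.133. At 2 h the changes of -0.41 and -0.40 passed at adjusted p = 0.0314 and 0.0496. The first was also lost with 75th percentile scaling, quantile normalisation, no filter, no variance trend or no block (adjusted p = 0.0689 to 0.766). It was lost as well without either high-dose 2 h array or the 0 h array of experiment 1 (adjusted p = 0.0507 to 0.213). The second was lost under the same settings, with a pseudocount of 1 and with a filter at 200 (adjusted p = 0.0509 to 0.835), and without either 0 h array, either low-dose 2 h array or either high-dose 4 h array (adjusted p = 0.0501 to 0.305).

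Csf2rb2 (1449360_at), the beta chain specific for IL-3 in the mouse, declined with little spread between experiments. It stood at 1012 and 1359 at 0 h. The high-dose arrays were at 698 and 868 at 2 h, and 465 and 630 at 4 h. The low-dose arrays were at 737 and 822, and then 409 and 611. All 8 later arrays were below both 0 h arrays, and within each experiment the 4 h arrays were below the 2 h arrays. At 4 h, 46.2% ± 0.289 (SD, n = 2) was left at the high dose and 42.7% ± 3.25 at the low dose. The change to 4 h relative to the median was -0.996 (adjusted p = 1.77e-06, limma) and -1.08 (adjusted p = 5.27e-07), each with a standard error of 0.12, and both calls were kept in every alternative. The further change from 2 h to 4 h also passed at both doses (-0.46 and -0.56, adjusted p = 0.00729 and 0.00178). At 2 h at the low dose the change of -0.53 (adjusted p = 0.00191) was lost without the low-dose 2 h array of experiment 2 (adjusted p = 0.103), and without the block both 2 h calls were lost (adjusted p = 0.415 and 0.402).

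The shared set moved less, and its 2 experiments stood far apart. At 0 h it was at 173 and 436. The high-dose arrays were at 130 and 291 at 2 h, and 136 and 286 at 4 h, and at the low dose 96.5 and 352, and then 109 and 275. Every later array was below the 0 h array of its own experiment, while the groups overlapped across experiments. The signal left at 4 h was 72.2% ± 9.33 (SD, n = 2) at the high dose and 63.1% ± 0.0623 at the low dose. Relative to the median the change to 4 h was -0.35 at the high dose (adjusted p = 0.0471, limma) and -0.49 at the low dose (adjusted p = 0.00733), with a standard error of 0.17. At the high dose the call was lost in 5 leave-one-out fits, those without either 0 h array, either low-dose 4 h array or the high-dose 4 h array of experiment 2 (adjusted p = 0.0619 to 0.37). At the low dose it was lost without the low-dose 4 h array of experiment 2 (adjusted p = 0.0561). At the high dose the call was lost too with a pseudocount of 1, no filter, a filter at 200, scaling to Gapdh or no variance trend. The adjusted p there was 0.0506 to 0.102 (limma). With 75th percentile scaling and quantile normalisation the 4 h calls were lost at both doses. Before the median was taken off, these changes were -0.05 and -0.04 at the high dose (adjusted p = 0.815 and 0.845, limma). At the low dose they were -0.21 and -0.19 (adjusted p = 0.306 and 0.334, limma). Relative to the median of each setting they were -0.36 and -0.21 at the high and -0.51 and -0.35 at the low dose. Neither 4 h call was kept without the block (adjusted p = 0.795 and 0.639). At 2 h the change of -0.47 at the low dose (adjusted p = 0.0376, limma) was lost without either 0 h array, either low-dose 4 h array or the low-dose 2 h array of experiment 1 (adjusted p = 0.0543 to 0.549). This 2 h call was lost as well with 75th percentile scaling, quantile normalisation, no filter, no variance trend or no block. The adjusted p there was 0.0563 to 0.968 (limma). The 2 genes are neighbours in the mouse RefSeq annotation, with 0 genes between them. How their RNAs share the probes of this set was not tested.

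Csf3r (1418806_at), the receptor for G-CSF, showed no change from 0 h past the test. It stood at 566 and 400 at 0 h. With the high dose it was 687 and 430 at 2 h, and 484 and 406 at 4 h. At the low dose it was 507 and 432 at 2 h, and 624 and 492 at 4 h. The experiment 1 array was the higher of the pair in all 5 groups, and the later groups overlapped with 0 h. At 4 h, 93.5% ± 11.3 (SD, n = 2) of the 0 h signal was measured at the high dose and 117% ± 9.07 at the low dose. Relative to the median the change to 4 h was -0.00 at the high dose (adjusted p = 0.584, limma) and 0.33 at the low dose (adjusted p = 0.202), with a standard error of 0.14. Scaling to the 75th percentile or quantile normalisation gave a rise at 2 h at the high dose and at 4 h at both doses. These rises are changes before the median was taken off. Relative to the median of each setting, the change at 4 h was 0.01 and 0.14 at the high dose. At the low dose it was 0.35 and 0.48.

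**Figure D2:**
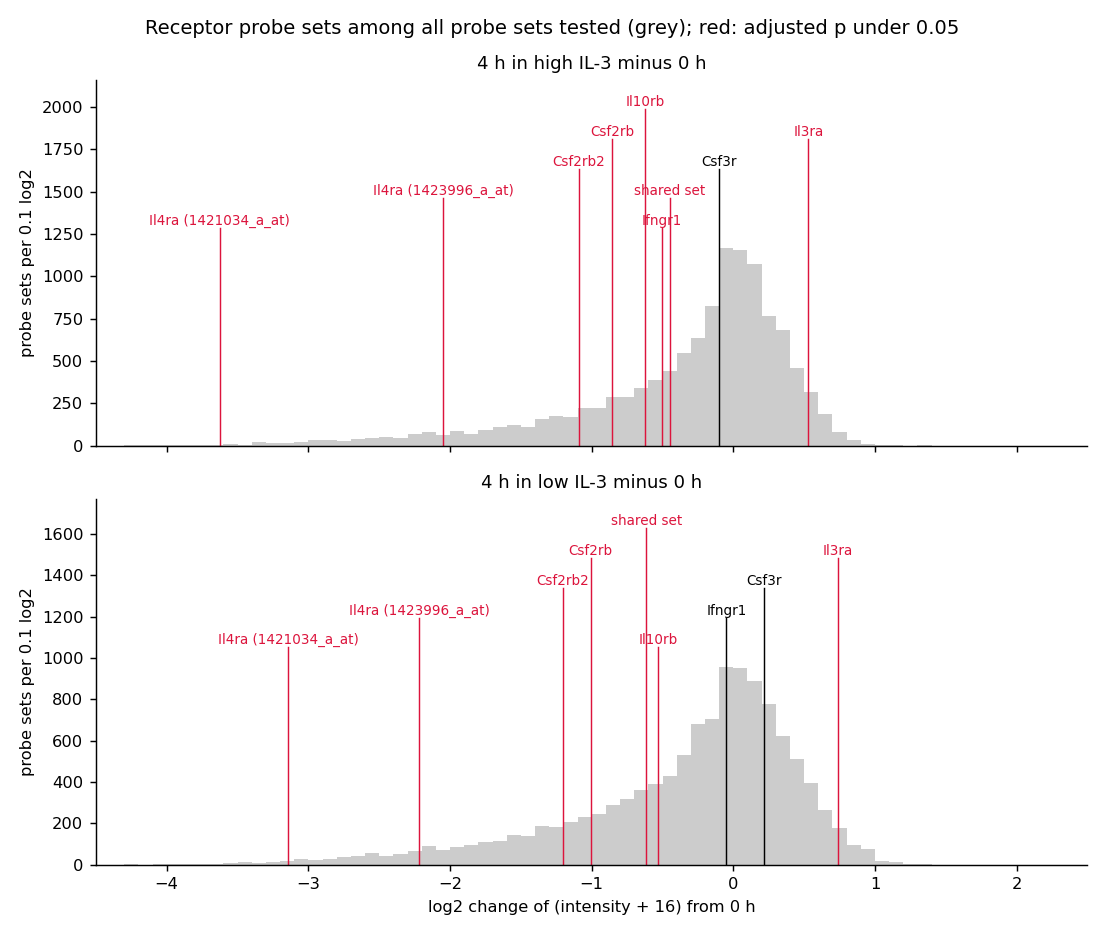
Log2 change of intensity plus 16 from 0 h to 4 h (x axis) at the high dose (top) and low dose (bottom), with the number of probe sets per 0.1 log2 on the y axis. Grey bars are all 11856 probe sets tested and labelled lines the 9 receptor probe sets, red where the adjusted p of limma was under 0.05. Il3ra lies in the upper tail, at the 95.5th and 97.4th percentiles, and 1421034_a_at of Il4ra in the lower tail, at percentiles 0.232 and 0.73.

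Among the 9 probe sets, the steepest declines were those of the IL-4 receptor. Il4ra encodes the alpha chain that binds IL-4 and signals through STAT6. Its probe set 1421034_a_at stood at 325 and 1054 at 0 h. The high-dose arrays were at 101 and 168 at 2 h, and 29.2 and 37.0 at 4 h. At the low dose it was 52.7 and 167 at 2 h, and 22.6 and 105 at 4 h. All 8 later arrays were below both 0 h arrays, although these differed several-fold from each other. Of the 4 arrays at 4 h, 3 were under an intensity of 50, so the size of the decline rests on dim arrays. At 4 h, 6.25% ± 3.89 (SD, n = 2) was left at the high dose and 8.46% ± 2.1 at the low dose. The change relative to the median was -3.53 (adjusted p = 2.9e-08, limma) and -3.02 (adjusted p = 1.2e-07), with a standard error of 0.28, at percentiles 0.232 and 0.73 of all probe sets tested. Before the median was taken off, the change ran from -4.18 to -2.76 at the high dose and from -3.55 to -2.45 at the low dose over the alternative settings, and both calls were kept in each.

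A second Il4ra probe set also fell at both doses. 1423996_a_at stood at 138 and 454 at 0 h. With the high dose it was 71.9 and 107, and then 26.5 and 83.6, and at the low dose 47.2 and 130, and then 37.5 and 46.5. Again all later arrays were below both 0 h arrays, and 3 of the 4 arrays at 4 h were under 50. The signal left at 4 h was 18.8% ± 0.541 (SD, n = 2) at the high dose and 18.7% ± 11.9 at the low dose, and the change relative to the median -1.95 and -2.10 (adjusted p = 8.37e-06 and 3.03e-06, limma). The third Il4ra probe set, 1447858_x_at, was under the limit for testing. It stood at 28.6 and 28.5 at 0 h and between 2.48 and 8.07 on the 8 later arrays, so it too was lower on every later array. All the calls of the first 2 probe sets were kept in every leave-one-out fit. Without the block, the 2 h calls of both were lost (adjusted p = 0.155 to 0.433), as was that of 1423996_a_at at 4 h at the high dose (adjusted p = 0.0724).

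Il10rb (1419455_at), the accessory chain of the IL-10 receptor, behaved differently in the 2 experiments. It stood at 291 and 128 at 0 h. The high-dose arrays were at 214 and 138 at 2 h, and 137 and 105 at 4 h, and at the low dose 204 and 130, and then 156 and 107. In experiment 1 every later array was lower than 0 h, while in experiment 2 the 2 h arrays were slightly above it. At 4 h, 47.2% and 82.1% of the 0 h signal was left in experiments 1 and 2 at the high dose, and 53.6% and 83.6% at the low dose. The change to 4 h relative to the median was -0.53 (adjusted p = 0.0102, limma) and -0.41 (adjusted p = 0.0212), with a standard error of 0.18. Both calls rested on experiment 1, and without its 0 h array the adjusted p was 0.222 at the high and 0.366 at the low dose. They were also lost without the 4 h array of experiment 1 at the same dose (0.139 and 0.14), and at the low dose without that of experiment 2 (0.0534). Scaling to the 75th percentile and quantile normalisation also ended both.

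Ifngr1 (1448167_at), the ligand-binding chain of the interferon gamma receptor, had a mean intensity of 75.7, not far above the limit for testing. It stood at 84.2 and 92.5 at 0 h. With the high dose it was 85.0 and 87.0 at 2 h, and 53.1 and 62.3 at 4 h, and at the low dose 71.8 and 50.6, and then 77.1 and 93.1. The high-dose arrays at 4 h and the low-dose arrays at 2 h were the low ones, and the other groups overlapped with 0 h. The change to 4 h at the high dose was -0.41 relative to the median (adjusted p = 0.0434, limma), with a standard error of 0.19. This call was lost without any one of the 0 h arrays or of the high-dose 4 h arrays (adjusted p = 0.0731 to 0.211). It was also lost with scaling to Gapdh, to the 75th percentile or by quantiles, with no filter and without the block (adjusted p = 0.071 to 0.453). At 4 h at the low dose the value was 0.07 (adjusted p = 0.844).

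The remaining probe sets were too dim to test. Csf2ra, the alpha chain of the GM-CSF receptor, had a mean of 15.6 over the 10 arrays on 1420703_at, where the lowest array was at 3.93 and the highest at 35.5. In experiment 1 that probe set was between 17.3 and 35.5, and in experiment 2 between 3.93 and 9.03, so the experiments did not overlap. Its other probe set, 1420704_at, had a mean of 3.27 and a highest value of 7.13. Il6st, which encodes gp130, the signalling chain of the IL-6 family, was between 2.07 and 22.1 over its 3 probe sets and all 10 arrays, with means of 6.55, 5.59 and 15.0. No change or dose difference is given for these genes, since their means were under the limit for testing.

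No receptor passed the test of a difference between IL-3 doses. None of the 9 probe sets was called for the mean of both times, against 0.709% of all probe sets tested. None was called at 2 h, against 0.059%, nor at 4 h, against 0.405%, nor for the change of the dose difference between times, against 0%. At an unadjusted p under 0.05, 0 of the 9 passed for the mean, 1 at 2 h, 2 at 4 h and 3 for the change between times. Of all 11856 probe sets tested, 1003, 868, 867 and 684 passed in these comparisons, in the same order. For the mean of both times, the limma 95% interval of the high minus the low dose was -0.24 to 0.20 for Il3ra, -0.19 to 0.29 for Csf2rb and -0.13 to 0.24 for Csf2rb2. It was widest for the Il4ra probe sets, at -0.47 to 0.38 and -0.25 to 0.54. No adjusted p of a receptor dose difference was under 0.146 in any of the 20 alternative settings.

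**Figure D3:**
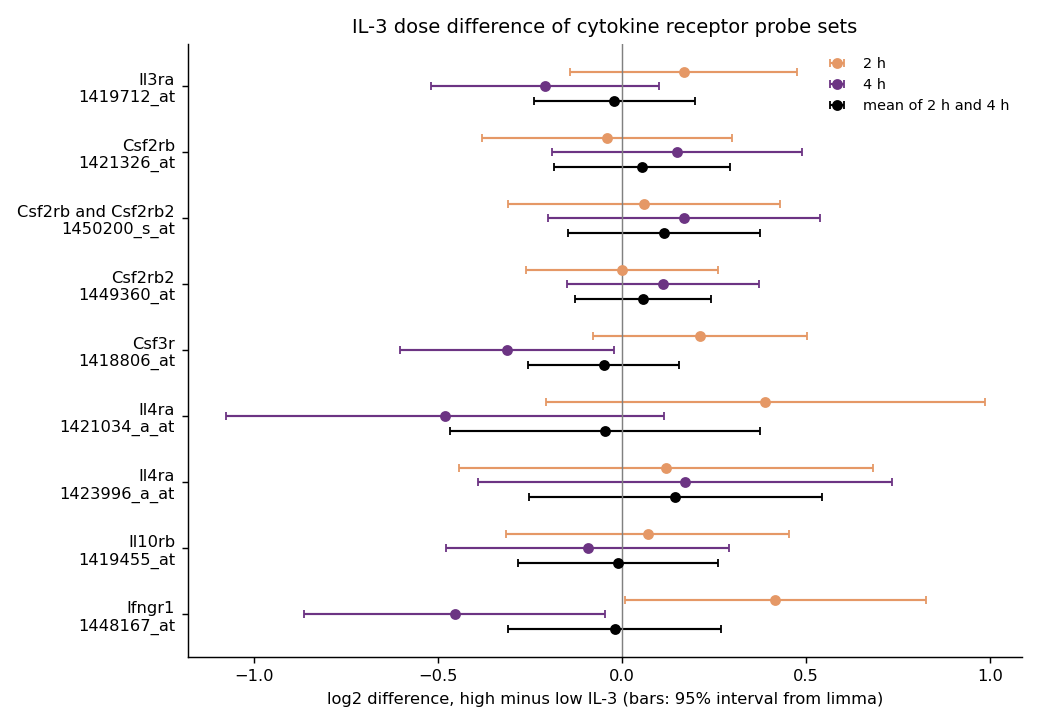
Log2 difference in intensity plus 16, high minus low (x axis), for each of the 9 receptor probe sets at 2 h, at 4 h and as the mean of both. Bars are 95% intervals from limma, with 2 arrays per group. Ifngr1 has its 2 h value of 0.42 and its 4 h value of -0.45 on opposite sides of 0, and none of the differences passed after adjustment.

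The receptors with the smallest unadjusted p were Ifngr1 and Csf3r. Ifngr1 was higher at the high than at the low dose at 2 h in both experiments (0.42 ± 0.19, SE, adjusted p = 0.674, limma), and lower at 4 h in both (-0.45 ± 0.19, adjusted p = 0.584). The change between times was -0.87 ± 0.27 (SE), with an adjusted p of 0.857 from limma. Csf3r was lower at the high dose at 4 h in both experiments (-0.31 ± 0.14, SE, adjusted p = 0.613, limma), and its groups did not overlap there, while at 2 h the experiments went opposite ways. The change between times was -0.52 ± 0.19 (SE, adjusted p = 0.857, limma). The third, 1421034_a_at of Il4ra, had -0.87 ± 0.40 (SE, adjusted p = 0.862, limma), and its 4 h difference was negative in experiment 2 alone. Il3ra, at 4 h, was lower at the high dose in both experiments, by -0.21 ± 0.15 (SE, adjusted p = 0.848, limma).

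**Figure D4:**
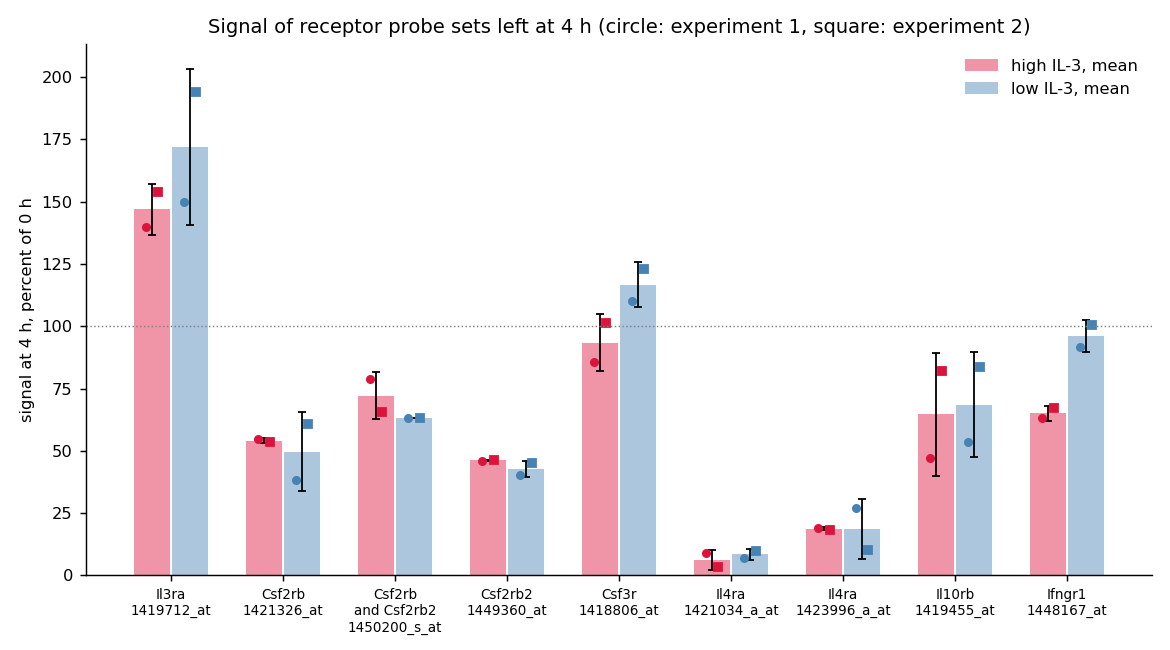
Signal left at 4 h as a percentage of the same experiment's 0 h array (y axis, linear from 0) for the 9 receptor probe sets (x axis). Bars are means of the 2 experiments with SD, circles experiment 1 and squares experiment 2. Csf2rb2 has 46.2% at the high and 42.7% at the low dose, and 1421034_a_at of Il4ra 6.25% and 8.46%.

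Half-lives were computed from a straight line through the 0 h array of the same experiment on the natural log scale. They are relative to the normalised mass of RNA, not absolute. That of 1421034_a_at of Il4ra was 0.985 h ± 0.245 (SD, n = 2) at the high dose and 1.02 h ± 0.0725 at the low dose, and that of 1423996_a_at 1.59 h ± 0.223 and 1.54 h ± 0.486, with the 4 h points under 50 as given above. Csf2rb2 had 3.54 h ± 0.076 at the high and 3.28 h ± 0.0328 at the low dose. Csf2rb had 4.38 h ± 0.0172 at the high dose, and at the low dose 2.94 h in experiment 1 and 5.81 h in experiment 2, so the spread between experiments there was larger than the difference between doses. The shared set had 7.33 h ± 2.52 and 5.35 h ± 1.06, and the first was 4.15 h from the 2 h arrays alone and 9.09 h from the 4 h arrays alone. Il10rb had 3.83 h and 4.32 h in experiment 1, but 21.8 h and 20.4 h in experiment 2, both longer than the 4 h over which it was followed. No half-life could be given for Il3ra, whose line did not decline in either experiment at either dose. Csf3r had a declining line in 1 experiment, at the high dose. Ifngr1 had 7.85 h ± 0.386 (SD, n = 2) at the high dose and 16.2 h ± 6.32 at the low dose, both longer than the 4 h followed. From the low-dose 4 h arrays alone, Ifngr1 declined in 1 experiment.

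The study's ranking starts from an area between the high and low dose curves of ratios to 0 h, with ratios of the high curve above 1 set to 1. The study attributes ratios above 1 to measurement noise, because transcription was blocked. The term for variability by which that area is divided was not computed here. For the area itself, Il3ra had -1.44 ± 0.536 (SD, n = 2). Without the limit its area was 0.10 ± 0.75, with 0.63 in experiment 1 and -0.43 in experiment 2, and with the limit on both curves it was 0, so the value of Il3ra was set by the limit applied to a curve that rose. Csf2rb had -0.01 ± 0.38 and Csf2rb2 0.03 ± 0.07 under all 3 ways of setting the limit, as neither rose above its 0 h level.

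Kinases, adaptors and feedback regulators that act behind the receptor were taken from a list of 27 genes for JAKs, STATs, adaptors and their inhibitors. Of these, 24 had a probe set and all 24 were tested. Socs3 and Sos1 passed the limit for testing through their 0 h arrays alone, since their 8 later arrays averaged 47.8 and 46.8, so a lower value was bound up with the choice and no fold is given. Of the other 22, 8 fell and 0 rose to 4 h at the high dose, against 35.4% and 9.67% of all probe sets tested. At the low dose 10 fell and 1 rose, against 38.3% and 15.3%. Nothing particular to the list is read from these counts. Cish, an inhibitor induced by cytokine signalling, changed by -2.48 relative to the median at the high and -2.40 at the low dose (adjusted p = 1.86e-09 and 1.92e-09, limma). Ptpn6, a phosphatase that dampens receptor signalling, changed by -1.35 at the high dose (adjusted p = 2.21e-07, limma). Ywhaz, which encodes a phosphoserine-binding adaptor protein, was the one that rose, at the low dose, by 0.31 relative to the median (adjusted p = 0.00841, limma). None of the 24 was called for a difference between doses as the mean of both times.

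Most other receptor subunits of this family were dim in these cells. A list of 35 further genes held class I and class II cytokine receptors and related proteins. Of these, 26 had a probe set, 14 were under 50 on both 0 h arrays and 11 were tested. The dim ones included Il5ra, the alpha chain that pairs with Csf2rb for IL-5, at 10.0 and 5.97 at 0 h, and Epor at 29.2 and 35.4. Il15ra passed the limit through its 0 h arrays alone, with a mean of 44.4 over the 8 later arrays, and no fold is given for it. Of the other 10, 2 fell and 0 rose to 4 h at each dose, against 35.4% and 38.3% of all probe sets tested that fell. At the high dose these were Ifnar1 at -0.61 and Ebi3 at -0.15 relative to the median (adjusted p = 0.00145 and 0.0471, limma), and at the low dose Crlf3 at -0.42 and Ifnar1 at -0.58 (adjusted p = 0.000652 and 0.00131, limma). The median change of the 10 was -0.03 at the high and 0.04 at the low dose.

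Receptors of other families were taken from a list of 13 receptor tyrosine kinase, IL-1, IL-17, TNF and TGF-beta receptor genes, of which 12 had a probe set and 7 were tested. Il17ra and Tnfrsf1b passed the limit through their 0 h arrays alone, with means of 38.5 and 41.1 over the 8 later arrays. Of the other 5, 3 fell and 0 rose to 4 h at each dose, against 35.4% and 38.3% of all probe sets tested that fell. The chains of the TGF-beta receptor were among them. Tgfbr2 changed by -2.07 and -2.02 relative to the median and Tgfbr1 by -1.65 and -1.42 at the high and the low dose (limma, adjusted p from 2.29e-08 to 8e-08). Kit and Flt3, growth factor receptors of early progenitors, were dim, at 8.25 and 12.2 for Kit and 13.7 and 12.6 for Flt3 on the 0 h arrays. None of the 7 or of the 11 was called for a difference between doses as the mean of both times.

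Over the 10 arrays, centred within each experiment on the log2 scale, the probe sets most like Il3ra were those of Mlf2 (Pearson r = 0.988), Bst2 (r = 0.986) and Acaa2 (r = 0.985). Those most like Csf2rb were of Eif5b (r = 0.992), Ipp (r = 0.985) and Med1 (r = 0.983). Csf2rb2 correlated with Csf2rb at r = 0.939, the 455th highest among the 11856 probe sets tested. Il3ra correlated with Csf2rb at r = -0.72. The arrays share their 0 h sample, time course and normalisation, so these are descriptions of likeness.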

How the data were processed

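Total RNA of 10 samples was hybridised to 1-colour Affymetrix 430A 2.0 arrays. The deposited values are linear intensities, for which the authors normalised all 10 arrays together and computed a model-based value per probe set in dChip at default settings (version not given in the sources used here). Genes were named from the platform annotation, which gives 20393 of the 22690 probe sets 1 gene, 691 several and 1606 none, with symbols updated through the gene identifier.

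Here log2(intensity + 16) of probe sets with a mean of at least 50 was fitted in limma 3.58.1 (R 4.3.3) with the 5 groups and the experiment as a block, eBayes with a trend, and Benjamini-Hochberg adjustment over all 11856 probe sets tested (threshold 0.05). The 5 arrays of an experiment came from 1 divided culture, which is where the pairing comes from, and deviations of arrays with the same number correlated at 0.762 to 0.887. Intervals are at 95%. The fit was tested on simulated data. Tables were read and figures drawn with Python 3.11.15, numpy 2.4.6, pandas 2.3.3 and matplotlib 3.10.9. The alternatives were pseudocounts of 1 and 64, no filter or a filter at 200, scaling to the 75th percentile or to Gapdh, quantile normalisation, no trend, no block, only the groups compared, and each array left out.

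Named were all probe sets of the receptors, from each list the genes of smallest p, at most 3 per direction, and the 3 genes most like Il3ra and Csf2rb. The receptors and lists were chosen with earlier results of these data known. No sequence is given, since the decay of an RNA bears on its transcript and no transcript sequence was used here.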

Additional observations from a re-analysis of the deposited data

How the results depend on the processing

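The dose comparisons had no call for any receptor in any of the 20 alternatives. Of 1416 single differences recomputed, 94 lost their call, 5 gained one, and 70 that passed in neither fit changed sign. Before the median was taken off, Csf3r at the high dose at 4 h turned from -0.10 to 0.32 (75th percentile scaling) and 0.30 (quantile normalisation). Relative to the median it stood at -0.00 in the main fit, and at 0.01 and 0.14 with these scalings. The counts that follow are of the 9 probe sets, 2 of which are of Il4ra. The same 2 scalings gave 2 higher than 0 h in place of 1, Csf3r being the second. This held at the high dose at 2 h and at 4 h and at the low dose at 4 h. With them, 4 probe sets in place of 7 were lower at the high dose at 4 h, and 3 in place of 5 at the low dose at 2 h. A filter at 200, which left fewer probe sets, gave 3 and 3 there. The 2 scalings also ended the calls of the shared set and of Il10rb at the low dose at 4 h, and that of Csf2rb at the high dose at 2 h. Leaving out single arrays ended these calls too, as given above. The 5 lower at 2 h at the low dose became 3 with no filter and with no trend, and the 1 higher became 0 with a pseudocount of 64, no filter and no trend. Without the replicate block, the numbers higher and lower were 0 and 0 at 2 h at the high dose, 0 and 2 at 4 h at the high dose, 0 and 0 at 2 h at the low dose, and 1 and 3 at 4 h at the low dose. Leaving out 1 array in turn gave 0 to 1 higher at 2 h in both doses and at 4 h at the high dose, and 4 to 7 lower at 4 h at the high dose and 3 to 5 at 2 h at the low dose. The cause was not tested.

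Half-lives from the 2 h arrays alone were 3.93 h for Csf2rb and 3.41 h for Csf2rb2 at the high dose, and 3.56 h for Csf2rb2 and 0.757 h for 1421034_a_at of Il4ra at the low dose. From the 4 h arrays alone they were 4.52 h for Csf2rb at the high dose and 1.12 h for 1421034_a_at at the low dose. The area of Il3ra was 0.10 with no limit and 0 with the limit on both curves. Signal over background limits Csf2ra and Il6st, which could not be followed.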

Other observations

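The 2 experiments differed at 0 h in several receptors and markers, with 1 array each and so no test. 1421034_a_at of Il4ra was at 325 and 1054, the shared set at 173 and 436 and Il10rb at 291 and 128, while Cebpa, a transcription factor of granulocyte precursors, was at 248 and 821 and Mpo, a granule enzyme, at 3409 and 509.

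Among markers of other blood cell types, Mcpt8 and Fcer1a, of basophils and mast cells, Cd68, of macrophages, and Pf4, of megakaryocytes, were higher at 4 h at both doses. Mcpt8 rose by 1.08 at the high and 1.50 at the low dose relative to the median (adjusted p = 0.000232 and 5.84e-06, limma). Fcer1a rose by 0.98 at the high and 0.69 at the low dose (adjusted p = 0.00271 and 0.032, limma). Its 0 h arrays were at 25.4 and 155 in experiments 1 and 2, and 5 of its 8 later arrays were at 50 or more. Cd68 rose by 0.71 and 1.04 (adjusted p = 0.0143 and 0.000607, limma) and Pf4 by 0.54 and 0.60 (adjusted p = 0.0175 and 0.00952, limma). Fcgr1, another macrophage marker, went the other way, at -0.90 and -1.08 (adjusted p = 1.43e-05 and 1.51e-06, limma). The macrophage markers Adgre1 and Csf1r and the erythroid and megakaryocyte markers Gata1 and Itga2b did not pass at 4 h at either dose. Cpa3, a mast cell protease, had 0.19 and 0.29 and did not pass (adjusted p = 0.456 and 0.177, limma). Gata2, a transcription factor also used by progenitors, fell by 2.59 and 2.70 relative to the median at the high and the low dose (adjusted p = 2.92e-09 and 1.88e-09, limma).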
